A study of Mus musculus with 6 samples.

Results

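The receptors described here guide thymocytes and other lymphocytes through tissues. They are the chemokine receptors Ccr4, Ccr6, Ccr8, Ccr9, Cxcr3, Cxcr4, Cxcr5 and Cxcr6, together with Gpr183, a receptor for oxysterols. The members were chosen by name: each was represented by the brightest probe set, by the mean of 6 arrays, that names that gene and no other. All 9 were measured, each by a single such probe set, among 22180 genes in all. RNA was measured on 6 Affymetrix arrays, 3 from wild-type mice (DP_WT) and 3 from Ets1-/- mice (DP_Ets1_KO), which lack the lymphocyte transcription factor Ets1. All mice were C57BL/6 and aged 5 to 6 weeks, and the labels name no treatment. Ets1-/- is given without a Cre or a promoter that would limit the loss to 1 cell type. Every sample was of double-positive thymocytes, which carry both CD4 and CD8; the cells were fixed with formaldehyde and taken with beads against CD8 and then CD4. Cohorts of litter mates served as replicates. The sources used here do not give how many mice each array held, so p-values refer only to these samples. Those from limma also draw on the spread of all genes.

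Chemokine receptors are seven-pass membrane proteins that signal mainly through inhibitory G proteins and turn a cell towards the source of the chemokine. In the thymus, Cxcl12 and Ccl25 from stromal cells act on Cxcr4 and Ccr9 of immature thymocytes. After positive selection thymocytes gain Ccr4 and Ccr7 and move into the medulla, while Cxcr3, Cxcr5, Cxcr6 and Ccr6 are better known on mature, innate-like or memory lymphocytes and on B cells.

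Across the series, the median of the deposited log2 values lay between 4.19 and 4.33 on 5 arrays and at 3.66 on Ets1-/- replicate 1, and the median difference of all genes was -0.22 (log2, Ets1-/- minus wild type), or -0.01 with each array centred on its median. The probe set of Ets1 itself gave 9.11, 9.32 and 9.17 in wild type and 9.27, 9.22 and 8.79 in Ets1-/-, a difference of -0.10 ± 0.23 (SE; limma adjusted p = 0.860). Where its probes lie relative to the deleted part was not analysed here, so the labels could not be checked by it, and Ets1-/- below means the arrays that carry this label. The label of double-positive cells was borne by Cd4, Cd8a and Cd8b1 among 12 measured marker genes of that stage, all 12 of which had group means above the median of all probe sets (4.18) in both groups. Of these 12, Ptcra, the pre-T-cell receptor alpha chain, rose by 1.50 (limma adjusted p = 0.0282), a call that held only when Ets1-/- replicate 1 was left out (up to 0.116 otherwise; 0.0871 with the replicate number as a block), and Tdrd5 fell by 2.55 (adjusted p = 0.00402). The summed linear signal of the 12 genes was lower in Ets1-/-, at 14043 to 15422 beside 16462 to 17361 in wild type. The Ets1-/- values lay below all wild-type values for 5 of the 12 and above them for 2. Of all genes 16.1% lay lower in this way and 5.76% higher, and 21.8% lay lower among genes with signal above the 75th percentile. The median difference of the 12 was -0.12 (log2), beside -0.22 for all genes. Neither the sums nor these counts were taken from median-centred arrays. Markers of other cells also moved with the genotype. Of 16 macrophage and monocyte markers 12 rose and 0 fell, 5 of 11 B-cell markers rose with 0 lower, and of 10 markers of natural killer T and other innate-like T cells 5 rose and 0 fell (limma adjusted p under 0.05). Over all genes 1.29% rose and 0.568% fell by this test, which is the background for every count of called genes below. In bulk RNA, a change in the number of cells of a type and a change in RNA per cell cannot be told apart.

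None of the 9 receptors passed the test in either direction. Limma called 413 of all 22180 genes at an adjusted p under 0.05, which is 1.86% (1.29% higher and 0.568% lower), so a count of 0 among 9 genes is near that background. The 287 higher and 126 lower calls became 484 and 423 with a pseudocount of 16, and 618 and 554 with a variance trend. At an unadjusted p under 0.05, 2 of the 9 stood apart, Cxcr6 higher and Ccr4 lower, beside 13.2% of all genes (4.54% higher and 8.62% lower). The groups did not overlap for 1 receptor, Cxcr6, which was higher in Ets1-/-, beside 21.9% of all genes (5.76% higher and 16.1% lower). Differences lay above 0 for 4 receptors and below it for 5, with a median of -0.02 (log2) beside -0.22 for all genes. For 6 receptors the difference was smaller than 0.5 on the log2 scale, and it was larger than 1 for Ccr4, Cxcr5 and Cxcr6. Leaving out any 1 array, quantile normalization, median centring, a pseudocount of 16, a variance trend and a replicate block gave 0 calls among the 9, and the smallest adjusted p in any of these fits was 0.0618, for Cxcr6 with the pseudocount.

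**Figure D1:**
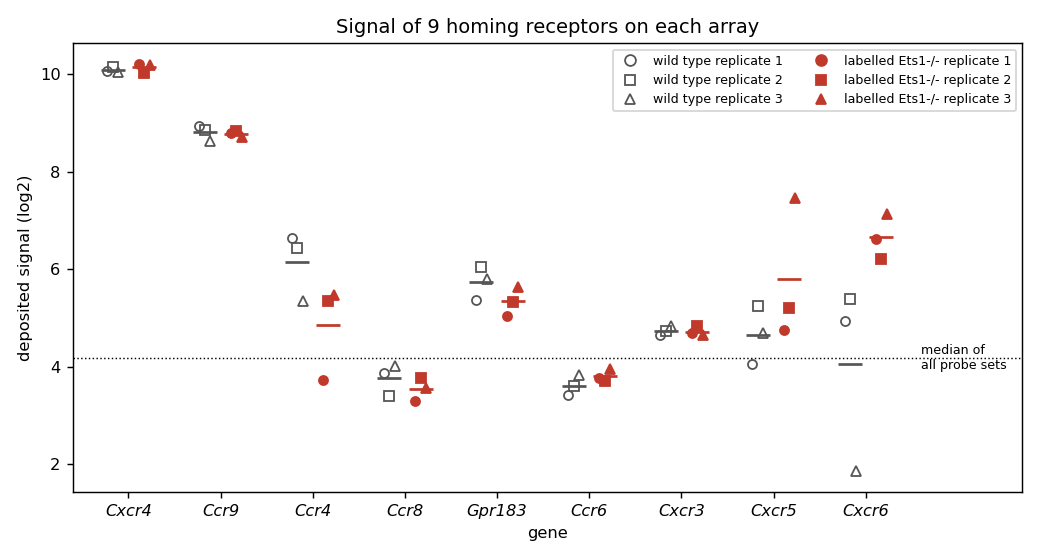
Deposited log2 signal (vertical axis) of the 9 receptors (horizontal axis) on each of 6 arrays. Open grey symbols are wild type, filled red symbols the arrays labelled Ets1-/-, short bars the group means, and the dotted line the median of all probe sets. Cxcr4 and Ccr9 lie within narrow ranges in both groups, and Cxcr6 is the receptor whose groups do not overlap.

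Ccr9 and Cxcr6 illustrate the range of outcomes from 1 stretch of mouse chromosome 9, and their upstream sequences are shown for that reason. In RefSeq (GRCm38.p6) their starts lie 39266 bases apart on the same strand. The 250 bases before each start are printed 5′ to 3′ on the plus strand, with capitals marking each GGAA or TTCC, the core that ETS factors recognise on either strand. The Ccr9 window is chr9:123766961-123767210 and the Cxcr6 window is chr9:123806227-123806476.
Ccr9: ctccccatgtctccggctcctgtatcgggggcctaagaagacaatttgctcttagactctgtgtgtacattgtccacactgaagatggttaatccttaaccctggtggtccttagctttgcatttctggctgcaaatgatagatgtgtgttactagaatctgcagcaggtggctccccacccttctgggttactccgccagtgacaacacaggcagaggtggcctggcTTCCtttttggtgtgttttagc
Cxcr6: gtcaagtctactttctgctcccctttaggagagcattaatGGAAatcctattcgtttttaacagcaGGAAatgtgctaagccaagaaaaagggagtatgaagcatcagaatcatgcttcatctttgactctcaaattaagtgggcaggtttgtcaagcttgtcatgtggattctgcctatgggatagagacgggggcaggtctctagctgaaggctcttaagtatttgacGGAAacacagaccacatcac
The Ccr9 window held 1 such core, beginning 22 bases before the start, and the Cxcr6 window held 3, beginning 210, 184 and 20 bases before it. The core is common: 93.4% of 32851 windows of the same length held at least 1, with a median of 3. Of the members, 8 had a RefSeq window (Ccr6 had 2 and Cxcr5 had none), and all 9 windows held between 1 and 4 cores. The longer form AGGAAG, which contains the core, was read on both strands and was in 5 of the 9 member windows and in 29.5% of all windows. A match describes letters only, and no binding was measured here.

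The receptors that immature thymocytes are known for had nearly the same signal in both groups. Cxcr4, the receptor for Cxcl12 that holds early thymocytes in the cortex and aids their passage through beta selection, gave 10.07, 10.16 and 10.06 in wild type and 10.22, 10.03 and 10.19 in Ets1-/- (log2 signal). The groups overlapped, and all 6 arrays lay within 0.19 of each other. The difference was 0.05 ± 0.21 (SE), with a 95% interval from -0.43 to 0.53 and a limma adjusted p of 0.923, so in linear terms the interval runs from 0.743-fold to 1.45-fold. This SE pools the spread of all genes. The Cxcr4 values themselves had SDs of 0.06 in wild type and 0.10 in Ets1-/-, and the SE was 0.08 with the variance trend. Ccr9, the receptor for Ccl25 and a gene strongly expressed by double-positive cells, gave 8.94, 8.87 and 8.63 in wild type and 8.79, 8.85 and 8.73 in Ets1-/-. Here the Ets1-/- arrays lay inside the wild-type range, and the difference was -0.03 ± 0.21 (SE; 95% interval -0.52 to 0.47; adjusted p = 0.966), which is 0.696-fold to 1.39-fold. Their mean signals were above those of 99.2% and 96.7% of all probe sets, and these were the 2 receptors above the 75th percentile (5.73). The downward shift of Ets1-/- replicate 1 was not visible in either gene. Centring arrays on their medians therefore moved both upwards, to 0.26 for Cxcr4 and 0.19 for Ccr9, and quantile normalization gave -0.01 and -0.03; the sign of such small values is not determined. 

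By a rule on likeness, the genes whose pattern over the 6 median-centred arrays most resembled that of Ccr9 were Atf7ip, Odf3 and Tra2a (Pearson r = 0.998, 0.997 and 0.996), and for Cxcr4 they were Tmem258, Hadha and Psmd14 (r = 0.998, 0.997 and 0.995). They were taken from 10437 genes with signal above the median. None of these 6 genes was called by limma (adjusted p between 0.918 and 0.996), and all points share the centring of the same 6 arrays. Centring left Ets1-/- replicate 1 highest, at 9.29 for Ccr9 beside 8.45 to 8.89 and at 10.72 for Cxcr4 beside 9.88 to 10.17. Any gene with near-constant deposited values takes this pattern after centring, and the 3 highest of 10437 were taken. These r values therefore show no link between the genes.

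None of the receptors Ccr4, Ccr8 and Gpr183, which are better known on later thymocytes and mature cells, passed the test, and the means of all 3 were lower in Ets1-/-. Ccr4, the receptor for Ccl17 and Ccl22 that helps selected thymocytes enter the medulla, gave 6.64, 6.44 and 5.36 in wild type and 3.74, 5.36 and 5.47 in Ets1-/-. Wild-type replicates 1 and 2 stood above all other arrays, Ets1-/- replicate 1 stood far below them, and wild-type replicate 3 lay between Ets1-/- replicates 1 and 2, so the groups overlapped. The difference was -1.29 ± 0.53 (SE; 95% interval -2.52 to -0.05), with an unadjusted limma p of 0.0432 and an adjusted p of 0.357; an exact permutation test over the arrays (two-sided) gave p = 0.3. Part of the low value was shared with its array: centred on the array median, Ets1-/- replicate 1 was at 4.23 beside 5.21 and 5.45 in the other two, and the difference of Ccr4 was -1.08. It was -0.73 without that array. Ccr8, the receptor for Ccl1 and, in mice, Ccl8, gave 3.87, 3.41 and 4.02 in wild type and 3.31, 3.76 and 3.56 in Ets1-/-. These values lay below the median of all probe sets and overlapped, with a difference of -0.22 ± 0.26 (SE; adjusted p = 0.724), close to the median shift of all genes and at 0.01 after quantile normalization. Gpr183, which senses 7α,25-dihydroxycholesterol and positions lymphocytes and dendritic cells, gave 5.38, 6.04 and 5.80 in wild type and 5.05, 5.33 and 5.64 in Ets1-/-. The groups overlapped through wild-type replicate 1 and Ets1-/- replicate 3, and the difference was -0.40 ± 0.27 (SE; 95% interval -1.03 to 0.24; adjusted p = 0.578), or -0.19 after centring.

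**Figure D2:**
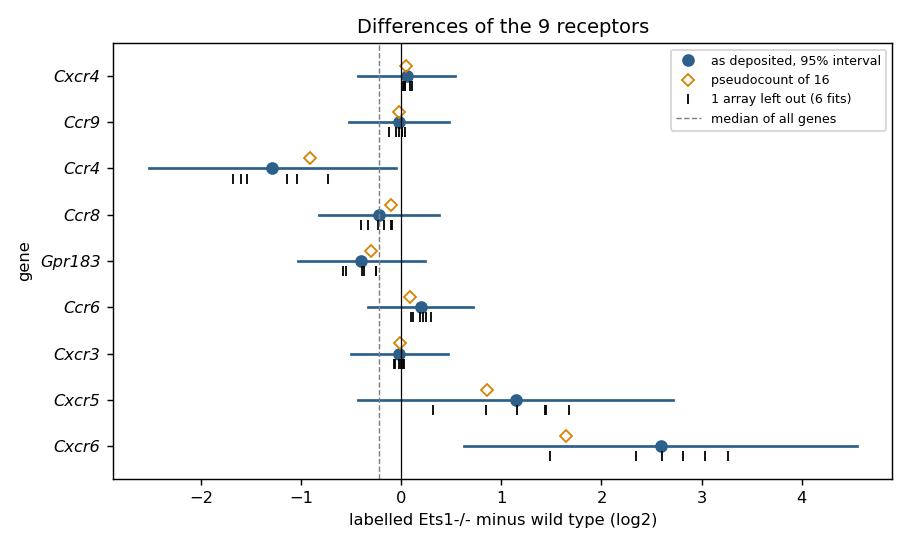
Difference between the arrays labelled Ets1-/- and wild type (log2, horizontal axis) for each receptor (vertical axis). Blue points and lines are limma estimates with 95% intervals, orange diamonds the estimate with a pseudocount of 16, black ticks the 6 fits that each leave out 1 array, and the dashed line the median of all genes. The intervals of Cxcr4, Ccr9 and Cxcr3 are narrow and centred near 0, while those of Ccr4, Cxcr5 and Cxcr6 are wide and their ticks are spread.

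Among receptors better known outside the double-positive stage, Ccr6 and Cxcr3 differed little and Cxcr5 and Cxcr6 had their highest values in Ets1-/-. Ccr6, the receptor for Ccl20 on B cells and interleukin-17-producing T cells, gave 3.42, 3.60 and 3.83 in wild type and 3.77, 3.71 and 3.96 in Ets1-/-. The groups overlapped below the median of all probe sets, and the difference was 0.20 ± 0.23 (SE; adjusted p = 0.722). Cxcr3, the receptor for Cxcl9, Cxcl10 and Cxcl11 on effector T cells and natural killer cells, gave 4.65, 4.74 and 4.84 in wild type and 4.69, 4.84 and 4.65 in Ets1-/-. All 6 arrays lay within 0.194 of each other, with a difference of -0.02 ± 0.21 (SE; 95% interval -0.50 to 0.47; adjusted p = 0.976). The sign turned to 0.19 with median centring and 0.15 with quantile normalization.

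Cxcr5, the receptor for Cxcl13 through which B cells and follicular helper T cells enter follicles, gave 4.06, 5.24 and 4.69 in wild type and 4.75, 5.21 and 7.46 in Ets1-/-. Ets1-/- replicate 3 stood above every other array by more than 2 on the log2 scale, and the other two Ets1-/- arrays lay within the wild-type range. The difference was 1.14 ± 0.68 (SE; 95% interval -0.43 to 2.72; limma adjusted p = 0.531), and it was 0.32 without Ets1-/- replicate 3. Of the 11 B-cell markers measured, 8 had their highest Ets1-/- value in replicate 3. Their summed linear signal ran from 90.4 to 130.4 in wild type and was 386.4, 506.7 and 800.5 in Ets1-/- replicates 1 to 3. Of these markers, Fcrla rose from 2.45 to 5.50, Ms4a1 from 0.04 to 6.19 and Cd79a from 2.60 to 6.80 (adjusted p = 0.000910, 0.00142 and 0.00293). With a pseudocount of 16 their differences shrank to 1.51, 2.39 and 2.51, and all 3 were still called. In wild type 10 of the 11 had means below the median of all probe sets, and in Ets1-/- 4 of the 11. The follicular helper list had 0 of 8 called in either direction by limma (2 at an unadjusted p under 0.05), and its summed signal overlapped between the groups (5972 to 6409 and 5184 to 6055). Bcl6, Icos and Cd200 of that list were at -0.53, 1.18 and 1.52, and without wild-type replicate 3 Icos was at 0.72 and Cd200 at 0.77. The part of B cells in the Cxcr5 signal was not tested.

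Cxcr6, the receptor for the membrane-bound chemokine Cxcl16, marks natural killer T cells, other innate-like T cells and tissue-resident T cells. It gave 4.94, 5.40 and 1.86 in wild type and 6.63, 6.21 and 7.15 in Ets1-/-. All 3 Ets1-/- arrays lay above all 3 wild-type arrays, and wild-type replicate 3 was far below the other two. The difference was 2.59 ± 0.85 (SE; 95% interval 0.63 to 4.55), with an unadjusted p of 0.0160 and a limma adjusted p of 0.235, so it did not pass over all genes. An exact permutation test (two-sided) gave p = 0.1, the smallest value that 3 arrays against 3 allow. Its size depended on wild-type replicate 3: without that array the difference was 1.49 (adjusted p = 0.164), and with a pseudocount of 16, which damps the low end of the scale, it was 1.64 (adjusted p = 0.0618). It was 2.80 with median centring and 2.71 with quantile normalization, and it remained above 0 in every fit that left out 1 array (1.49 to 3.26).

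Several genes listed for innate-like T cells, though not the defining ones, were higher in the same arrays as Cxcr6. The summed linear signal of 10 such markers ran from 259.3 to 317.3 in wild type and from 1690 to 2655 in Ets1-/-. The granzyme Gzmb rose from 2.19 to 6.72, the receptor Slamf7 from 2.15 to 6.46 and the granule protein Nkg7 from 4.91 to 8.14 (limma adjusted p = 0.000578, 0.000813 and 0.00174). With a pseudocount of 16 the difference of Gzmb was 2.56 in place of 4.53 and that of Slamf7 2.34 in place of 4.31. The defining genes of the list stayed close to or below the median of all probe sets: Zbtb16, which encodes the natural killer T-cell factor PLZF, had means of 3.47 and 3.51 in wild type and Ets1-/-, Tbx21 4.36 and 4.25, and the receptor Klrb1c 2.96 and 2.46. The wild-type values of Il2rb, the interleukin-2 receptor beta chain, were 2.95, 4.79 and -0.55, so wild-type replicate 3 was the lowest there as well. Of 10 natural killer cell markers 1 rose and 0 fell, of 7 gamma-delta T-cell markers 2 rose and 0 fell (0 rose without Ets1-/- replicate 3), and of 10 regulatory T-cell markers 2 rose and 0 fell. Their summed signals ran from 243.6 to 391.9, 88.3 to 117.8 and 971.1 to 1193 in wild type and from 603.4 to 1049, 223.3 to 404.6 and 2109 to 2408 in Ets1-/-. Wild-type means lay below the median of all probe sets for 7 of 10, 5 of 7 and 3 of 10 of these markers. Differences lay above 0 for 6, 3 and 8 of them and below it for 4, 4 and 2, with medians of 0.29, -0.20 and 0.60. In the regulatory list, Foxp3 and Ctla4 were at 0.03 and 0.10, and Il2ra was at 3.17. The lists also share genes. The 1 natural killer marker called was Nkg7, which with Il2rb and Klrb1c is also in the innate-like list. Blk is in both the B-cell and the gamma-delta list. The part of any of these cells in the Cxcr6 signal was not tested.

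The neighbours of Ccr9 and Cxcr6 were read because Cxcr6 lies within the span of Fyco1 in the RefSeq annotation; these genes were chosen after their values were seen. Fyco1, an adaptor for vesicle transport, had a wild-type mean of 6.63 ± 0.14 and an Ets1-/- mean of 6.52 ± 0.35 (SD, n = 3 each; difference -0.12, limma adjusted p = 0.855), so it did not share the higher values of Cxcr6. Lztfl1 on the other side of Ccr9 differed by 0.16 (adjusted p = 0.756). Further along, the dendritic-cell receptor Xcr1 was at -1.15 (adjusted p = 0.266), Ccr1 at 0.38, Ccr1l1 at -0.90, Ccr3 at 0.22 and the monocyte receptor Ccr2 at 1.71 (adjusted p = 0.0586). None of the 9 genes measured in this stretch passed the test over all genes in the values as deposited. Ccr2 was called higher with median centring, quantile normalization, the pseudocount of 16, the filter at the median signal and the variance trend (adjusted p = 0.0322, 0.0419, 0.0181, 0.0284 and 0.00367), and without wild-type replicate 2 (0.0275). It was not called without any 1 of the other arrays (up to 0.189).

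**Figure D3:**
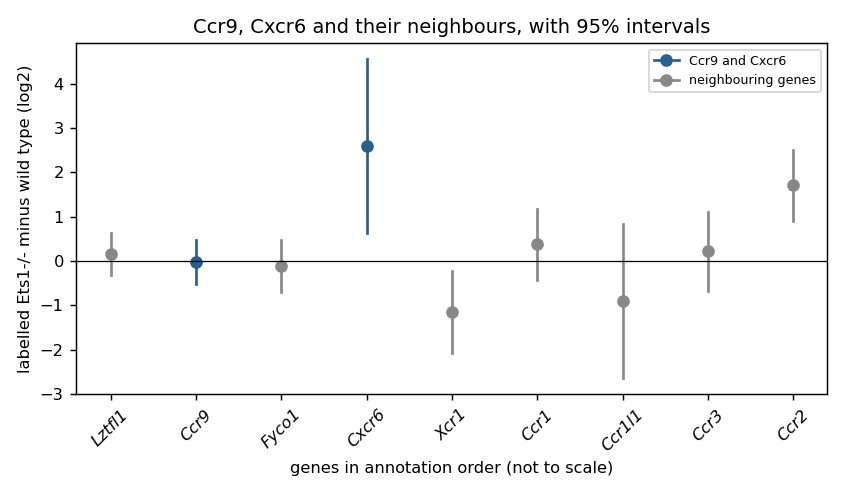
Difference between the arrays labelled Ets1-/- and wild type (log2, vertical axis) for Ccr9, Cxcr6 and the measured genes around them, in annotation order and not to scale. Lines are limma 95% intervals. Fyco1, which spans Cxcr6, is at -0.12 while Cxcr6 is at 2.59.

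Some ligands of these receptors rose, although no receptor passed the test. Of the 16 chemokines and oxysterol enzymes listed for the 9 receptors, all measured, 4 rose and 0 fell, with a median of -0.21 beside -0.22 for all genes, of which 1.86% were called. Ccl8, which in mice acts on Ccr8, gave 3.53, 4.16 and 3.07 in wild type and 10.44, 10.31 and 11.05 in Ets1-/-, a difference of 7.01 ± 0.34 (SE; adjusted p = 0.000224). Its 2 groups were far apart while Ccr8 itself stayed below the median of all probe sets. The interferon-induced Cxcl10, a ligand of Cxcr3, rose from 1.79 to 4.62 (2.84 ± 0.31; adjusted p = 0.00406), with 1.07 left under the pseudocount of 16. Cxcl9, a further ligand of Cxcr3, gave 6.80, 5.96 and 5.30 in wild type and 8.11, 8.08 and 7.76 in Ets1-/-, a difference of 1.97 ± 0.38 (adjusted p = 0.04997); the call held when wild-type replicate 1 was left out and ended without any 1 of the other arrays (adjusted p up to 0.162). Cxcl16, the ligand of Cxcr6, gave 5.16, 5.55 and 4.04 in wild type and 7.53, 7.53 and 7.97 in Ets1-/-. This ligand was higher on every Ets1-/- array, by 2.76 ± 0.40 (adjusted p = 0.0145), and its call ended without any 1 of the Ets1-/- arrays (up to 0.0603).

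The other ligands did not pass the test. Cxcl12 and Ccl25, the ligands of Cxcr4 and Ccr9, were at -0.21 ± 0.31 and -0.21 ± 0.26 (SE; adjusted p = 0.781 and 0.741), close to the median shift of all genes. Ccl17 and Ccl22, the ligands of Ccr4, were at 1.26 ± 0.54 and 1.56 ± 0.81 (adjusted p = 0.372 and 0.479), where Ccr4 itself was at -1.29. Leaving out 1 array gave 0.83 to 1.74 for Ccl17 and 0.67 to 2.22 for Ccl22, both lowest without wild-type replicate 1. Ccl20, Ccl1, Cxcl13 and Cxcl11 were at -0.45, -0.44, -0.22 and -0.77. The enzymes that make or remove the Gpr183 ligand, Ch25h, Cyp7b1, Hsd3b7 and Cyp27a1, were at -0.20, -0.31, -0.24 and 1.05. Chemokines of this list are made chiefly by stromal, dendritic and macrophage-lineage cells. The 16 macrophage and monocyte markers had a summed linear signal of 778.8 to 990.6 in wild type and 4312 to 5731 in Ets1-/-, with Csf1r, Ctss and C1qa up by 3.31, 2.78 and 2.85 (adjusted p = 0.00140, 0.00197 and 0.00232), and the 13 dendritic-cell markers, of which 6 rose and 0 fell, had 590.0 to 682.8 and 3548 to 3780, with H2-Aa, H2-Eb1 and H2-Ab1 up by 3.48, 4.11 and 3.65 (adjusted p = 0.000527, 0.00110 and 0.00110). Of the macrophage markers 6 had wild-type means below the median of all probe sets, and of the dendritic-cell markers 2. The dendritic-cell markers did not move as one: differences lay above 0 for 9 and below it for 4. Itgax and Irf8 were at 3.67 and 2.51, and Flt3, Batf3, Cd209a and Xcr1 at 0.03, -0.25, -0.19 and -1.15. The 11 thymic epithelium markers had 0 called in either direction by limma (1 at an unadjusted p under 0.05), with Cldn3, Foxn1 and Dll4 at -1.12, -0.46 and -0.53. Their summed signal overlapped (203.2 to 236.8 and 136.0 to 303.8). The part of these cells in the ligand values was not tested.

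**Figure D4:**
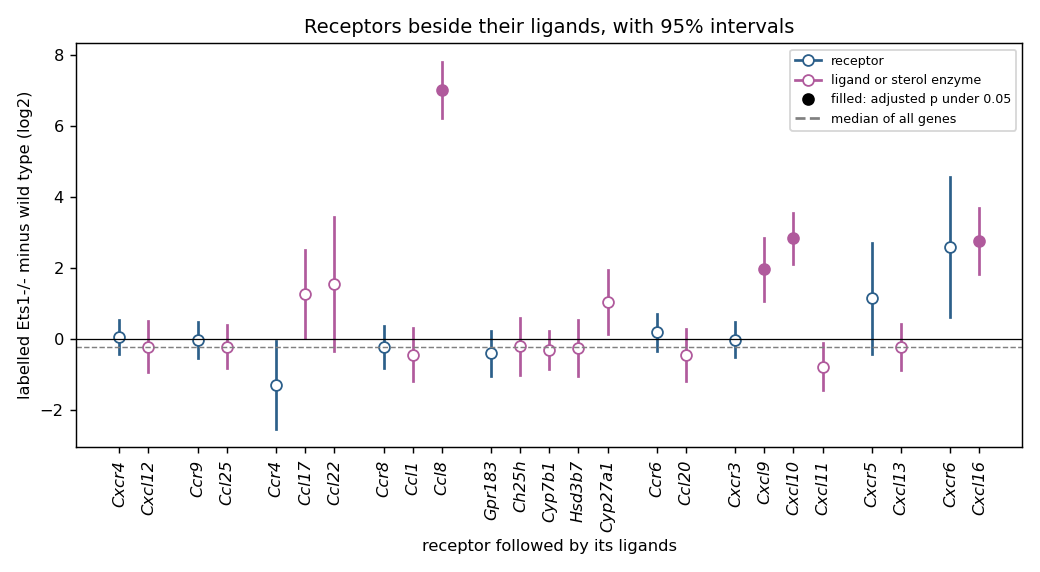
Difference between the arrays labelled Ets1-/- and wild type (log2, vertical axis) for each receptor (blue) followed by its ligands or the enzymes of its sterol ligand (purple), with limma 95% intervals. Filled points passed an adjusted p under 0.05: these are Ccl8, Cxcl9, Cxcl10 and Cxcl16, and no receptor is among them.

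Of 10 other chemokine receptors measured, 1 rose and 0 fell, beside 1.29% and 0.568% of all genes. Ccr10, the receptor for Ccl27 and Ccl28 known on plasma cells and skin-homing T cells, gave 2.90, 2.37 and 3.05 in wild type and 4.95, 6.06 and 6.39 in Ets1-/-. The groups were apart by 3.03 ± 0.40 (SE; adjusted p = 0.0101), or 1.67 with a pseudocount of 16, and the adjusted p was 0.0541 without Ets1-/- replicate 2. Ccr7, the main receptor of medullary entry, was at -0.07 ± 0.27 (adjusted p = 0.924) and was named after its values were seen. Of 5 genes listed as atypical receptors, the Ackr genes and Pitpnm3, 0 were called in either direction by limma (1 at an unadjusted p under 0.05, beside 13.2% of all genes). Of these, the Ackr receptors take up chemokines without G-protein signalling. Ackr4 and Ackr2 were at 0.95 and -0.47.

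No gene that carries the receptor signal into the cell passed the test over all genes in the main fit. Under alternatives up to 4 signalling genes and up to 3 cytoskeletal genes were called. Of 22 measured genes of G-protein signalling and desensitisation, 0 were called in either direction by limma, with 2 higher and 4 lower at an unadjusted p under 0.05. At that level 4.54% of all genes were higher and 8.62% lower. The phospholipase Plcb2 was at -1.10 ± 0.22 (SE; adjusted p = 0.0537) and the receptor kinase Grk6, which phosphorylates active receptors, at -1.20 ± 0.24 (adjusted p = 0.0584). Both were called lower with quantile normalization (adjusted p = 0.0212 and 0.0236) and with the pseudocount of 16 (adjusted p = 0.00418 and 0.00804), but not with median centring (0.0562 for each). Grk6 was also called lower with the filter at the median signal (adjusted p = 0.0217) and the trend (0.00178). Arrb1 was at -1.29 and was called lower with the trend only (adjusted p = 0.0391). Rgs1, which limits G-protein signalling and was named after its values were seen, was higher by 3.09 ± 0.67 (SE; adjusted p = 0.0743). It was called with median centring (0.0416), the pseudocount of 16 (0.00643) and the filter at the median signal (0.0414), and not with quantile normalization (0.0586) or the trend (0.0627). Of 20 cytoskeletal effectors of migration, 0 were called in either direction by limma. At an unadjusted p under 0.05, 0 were higher and 5 lower, beside the same 4.54% and 8.62% of all genes. Prex1, an exchange factor for Rac, was at -0.88 ± 0.22 (adjusted p = 0.117), and the Rap1 effector Rassf5 at -0.74 ± 0.23 (adjusted p = 0.210). The 3 Ets1-/- values lay below all wild-type values for 14 of these 20 genes, beside 16.1% of all genes and 21.8% of genes with signal above the 75th percentile, where all 20 lay. With each array centred on its median the count was 6 of 20, beside 9.30% and 11.0%, and the median difference of the list moved from -0.40 to -0.19.

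Other receptors of homing and egress moved in both directions. Of 15 measured, 4 rose and 2 fell, beside 1.29% and 0.568% of all genes. S1pr1, the receptor through which mature T cells leave the thymus, rose from 3.81 to 7.35 (adjusted p = 0.00110), and Itgae, the integrin chain that binds E-cadherin on epithelium, from 3.93 to 6.89 (adjusted p = 0.00268). Cd44, a receptor for hyaluronan, rose by 2.14 ± 0.23 (SE; adjusted p = 0.00353). Plxnd1, which guides thymocytes to the medulla, fell by 2.78 ± 0.30 (adjusted p = 0.00406). These 4 kept their calls whichever array was left out (adjusted p at most 0.0242). The remaining calls in this list, Itgal and Itgb7, were named after their values were seen. Itgal, the alpha chain of the integrin LFA-1, fell by 1.80 ± 0.26 (SE; adjusted p = 0.0149), and its call ended without any 1 wild-type array or Ets1-/- replicate 2 (adjusted p up to 0.0683). Itgb7, the beta chain that pairs with Itgae, rose by 1.90 ± 0.36 (SE; adjusted p = 0.0460), and its call held only when wild-type replicate 2 was left out (adjusted p up to 0.134 otherwise, and 0.0814 with the replicate number as a block). Beside them stand the mature single-positive T-cell markers, of which 5 of 11 rose and 0 fell, with Klf2 and Ms4a4b up by 3.60 and 2.94 (adjusted p = 0.000578 and 0.00246). The markers did not move as one: differences lay above 0 for 7 of the 11 and below it for 4. Cd52, Gimap6, Ccr7 and Foxo1 were at -0.46, -0.39, -0.07 and -0.06. The Ets1-/- values lay above all wild-type values for 7 of the 11 and below them for 2, beside 5.76% and 16.1% of all genes. The summed signal of the 11 markers ran from 1638 to 1889 in wild type and 2243 to 2758 in Ets1-/-. Of these markers, 2 had wild-type means below the median of all probe sets. Their part in these changes was not tested.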

How the data were processed

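The authors deposited 1 table of log2 values for 41345 probe sets on 6 single-channel Affymetrix arrays, 3 per group. Their range (-15.86 to 16.36) was taken to show a log2 scale. The submitters' processing notes name affy; the background correction, normalization and build are not given in those sources. No detection calls were used, and the number of arrays limits the precision. Probe sets were named through the platform annotation: 23521 named 1 gene, 1814 several, and 16010 were unnamed here. The brightest probe set stood for each of 22180 genes. Differences (Ets1-/- minus wild type) were fitted by lmFit and eBayes of limma 3.58.1 (R 4.3.3), two-sided and without covariates. Adjusted p is the Benjamini-Hochberg value over all genes, with a threshold of 0.05. SE and 95% intervals are limma's moderated ones, which pool the variance of each gene with that of all genes. The fit was tested on simulated data. Python 3.11.15, pandas 2.3.3, numpy 2.4.6, scipy 1.17.1 and matplotlib 3.10.9 were used for tables, exact permutation tests and plots. RefSeq tables (GRCm38.p6) gave gene names and upstream sequences. Summed marker signals are sums of 2 raised to the log2 value.

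The text names all 9 receptors and the 3 genes most like Ccr9 and Cxcr4. From each pathway list it names the called members (at most 4 by smallest p, otherwise the 2 with the smallest p). From each marker list it names up to 3 members by the same order. Il2rb, Zbtb16, Tbx21, Klrb1c, Itgax, Irf8, Flt3, Batf3, Cd209a, Blk, Arrb1 and the remaining ligands were named after their values were seen. So were Cd52, Gimap6, Foxo1, Foxp3, Ctla4, Il2ra and Pitpnm3. The members and lists were chosen with earlier results of these data known. Alternatives were quantile normalization, median centring, a pseudocount of 16, a filter at the median signal, the mean of all probe sets, an intensity trend with a robust prior, a replicate block, and the omission of each array. Replicate numbers were not shown to pair the samples.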

Additional observations from a re-analysis of the deposited data

How the results depend on the processing

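None of the 9 receptors was called under any alternative; Ccr6 and Ccr8 gave no value under the filter at the median signal. Of 115 receptor differences under alternatives, 104 kept their direction and 11 changed sign, in Ccr8, Ccr9, Cxcr3 and Cxcr4. The filter, the mean of all probe sets, the trend and the replicate block leave each difference unchanged by construction. Those fits are counted among the 104 but could not change sign, so the 104 overstates how stable the directions were. Median centring gave 0.19 for Ccr9 and 0.19 for Cxcr3. Quantile normalization gave 0.010 for Ccr8, 0.15 for Cxcr3 and -0.011 for Cxcr4. Leaving out 1 array gave -0.118 to 0.039 for Ccr9 and -0.074 to 0.031 for Cxcr3. Of the other chemokine receptors 1 was called, and 2 with quantile normalization, median centring, the pseudocount, the filter or the trend (0 to 2 with 1 array left out). Of the signalling genes 0 were called, but 3 with quantile normalization, 1 with median centring and 4 with the pseudocount, the filter or the trend (0 to 1 with 1 array left out). Of the cytoskeletal genes 0 were called, but 2 with the pseudocount, 1 with the filter and 3 with the trend. Of the ligands 4 were called, and 2 to 4 with 1 array left out. Over all genes 413 were called, but 798 with quantile normalization, 745 with median centring, 907 with the pseudocount, 1172 with the trend and 190 to 379 with 1 array left out. With 1 array left out, the markers that rose numbered 9 to 12 for macrophages, 4 to 5 for dendritic cells, 3 to 4 for B cells, 3 to 4 for mature T cells, 5 to 6 for innate-like T cells and 1 to 2 for regulatory T cells. The fits without 1 array hold fewer samples; the cause of the other changes was not tested. Each receptor had a single probe set, so no further probe set gave a value.

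Samples of the same replicate number did not deviate together (r = -0.07, -0.01 and -0.05 over genes), and the labels name litter-mate cohorts as replicates without saying that arrays of the same number share one, so the pairing was not settled. With the replicate block 311 genes were called in place of 413, none of the 9 receptors was called, and 5 homing and egress receptors were called in place of 6. Of the genes named above, the block ended the calls of Itgb7 (adjusted p = 0.0814) and Ptcra (0.0871).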
